A study of Mus musculus with 6 samples.

Results

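Lung group 2 innate lymphoid cells (ILC2s) were examined for the transcripts of 10 genes that carry the IL-33 signal to NF-κB. These were the 3 subunits of the IκB kinase (IKK) complex (*Chuk*, *Ikbkb* and *Ikbkg*), the kinase TAK1 (*Map3k7*) with its binding partners (*Tab1*, *Tab2* and *Tab3*), the ubiquitin ligase *Traf6*, and the receptor-proximal kinases *Irak1* and *Irak4*. The 10 genes were taken by symbol from a table of 22554 genes, and each of them was found once. The cells came from wild-type BALB/cByJ mice, 8 weeks old by the labels, given rmIL-33 into the nose at 0.5 µg in each of 3 doses, and were sorted as ILC2s. All 6 samples were then cultured for 24 h at 50000 cells per mL with rmIL-2 and rmIL-7, both at 10 ng/mL. CD200-Fc, a fusion of the CD200R ligand CD200 with an antibody Fc part, was present in 3 of them (replicates 35, 36 and 38), and the isotype control in the other 3 (replicates 16, 17 and 18). The legends of the study also name rmIL-33 in this culture, whereas its methods for RNA-seq do not. The methods describe the mice as female, but the reporting summary has a line that calls them male. The mouse and culture behind each sample are named neither in the labels nor by the study. The p-values therefore rest on the spread among 3 samples a group, and that spread may be technical only.

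IL-33 binds its receptor ST2, which recruits the adaptor MyD88 and, through it, IRAK4 and IRAK1. IRAK1 engages TRAF6, which builds ubiquitin chains, and TAB2 and TAB3 bind these chains and bring TAK1 to them. TAK1 phosphorylates the catalytic subunits of IKK, which is held together by the regulatory subunit NEMO (the product of *Ikbkg*). IKKβ (*Ikbkb*) then phosphorylates IκBα and releases the canonical NF-κB dimers, while IKKα (*Chuk*) also drives processing of p100 in the non-canonical pathway. In ILC2s this route is known for its part in the production of type 2 cytokines. The comparison of CD200-Fc with isotype addresses whether engaging CD200R changes the transcripts of this route. The data used here are RNA levels, and hold neither the proteins nor their phosphorylation. By flow cytometry, the study reported lower phosphorylated IKKα/β with CD200-Fc.

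The catalytic subunits IKKα and IKKβ are close relatives, and the reference sequences below show the parts on which their function rests. Each is the coding strand of a GENCODE vM21 transcript on GRCm38. The activation loops are shown first, with capitals on the codons of the serines whose phosphorylation switches the kinases on (codons 176 and 180 of *Chuk*, 177 and 181 of *Ikbkb*).
Chuk activation loop: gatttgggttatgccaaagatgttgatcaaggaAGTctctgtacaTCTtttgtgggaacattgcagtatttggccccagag
Ikbkb activation loop: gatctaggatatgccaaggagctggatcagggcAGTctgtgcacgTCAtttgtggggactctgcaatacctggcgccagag
These stretches lie on the minus strand at chr19:44097319-44097513 and chr8:22678906-22681734, and in each gene an intron divides the stretch between 2 exons. They were identical at 61 of 81 bases (75.3%), and 25 of their 27 codons specified the same amino acid.
The stretches near the C terminus with which both kinases bind NEMO are shown next, with capitals on the tryptophan codons (740 and 742 of *Chuk*, 739 and 741 of *Ikbkb*).
Chuk NEMO-binding stretch: cttgatTGGagtTGGtta
Ikbkb NEMO-binding stretch: ctagacTGGagcTGGtta
They lie within 1 exon each, at chr19:44074520-44074537 and chr8:22660439-22660456 on the minus strand. All 6 codons specified the same amino acids, although only 15 of 18 bases were identical.

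TAB2 and TAB3 are the other pair of close relatives, and the result for *Tab2* given below makes it useful to see how far their transcripts differ. Both end in a zinc finger that binds ubiquitin chains, shown here with capitals on its 4 cysteine codons.
Tab2 zinc finger: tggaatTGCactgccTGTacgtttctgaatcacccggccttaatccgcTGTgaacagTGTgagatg
Tab3 zinc finger: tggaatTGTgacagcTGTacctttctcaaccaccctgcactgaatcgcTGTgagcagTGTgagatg
The *Tab2* stretch lies at chr10:7907450-7907515 on the minus strand (codons 668 to 689), and the *Tab3* stretch at chrX:85630474-85630539 on the plus strand (codons 691 to 712). Of 66 bases, 50 were identical (75.8%), with a longest identical run of 12, and 19 of 22 codons specified the same amino acid. Over the whole transcripts, no stretch of 50 bases was shared between *Chuk* and *Ikbkb* or between *Tab2* and *Tab3*. *Ikbkb*, *Tab1*, *Tab3* and *Traf6* shared no such stretch with any other annotated gene, and *Tab2* shared 0.554% of its stretches.

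The libraries held 20096555 to 33321709 expected counts, which are read counts that a statistical model divides among genes and that need not be whole. Every CD200-Fc library (24038189 to 33321709) was deeper than every isotype library (20096555 to 23239853). Of the 22554 genes, 14124 were kept for testing, including the 10 members. With edgeR's quasi-likelihood test, 293 of these (2.07%) had a Benjamini-Hochberg adjusted p below 0.05 and are referred to as called. Of all genes tested, 1.48% were called as higher and 0.595% as lower in the CD200-Fc libraries. Levels are given as CPM, the count divided by the TMM-scaled size of its library, and each log2 fold change sets CD200-Fc against isotype. All 10 ILC2 markers were detected, with a summed level of 8727.2 to 8880.7 CPM in isotype and 8982.8 to 9073.1 CPM in CD200-Fc libraries. Much of this sum was *Il5*, at a mean of 4761.0 CPM with isotype and 4677.4 CPM with CD200-Fc. Of the 10 ILC2 markers, 2 were called higher and 1 lower with CD200-Fc, so their levels were not all alike between the groups. The sums of those markers of other cells that were in the table were far lower in every library, at most 29.2 CPM for T cells, 20.2 for B cells, 0.557 for NK cells, 11.8 for myeloid cells, 7.6 for granulocytes and mast cells, and 26.3 for endothelial and stromal cells. The epithelial sum was 25.5 to 26.0 CPM in isotype and 30.0 to 35.5 CPM in CD200-Fc libraries. Nearly all of it was *Epcam*, and the defining lung epithelial genes *Sftpc* and *Scgb1a1* were at 0 in every library.

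Most genes of the route from IRAK to IKK showed no change with CD200-Fc that passed the test. Of the 10 members, 1 was called lower (*Tab2*), none was called higher and 9 did not pass. Over all genes tested 2.07% were called, 0.595% as lower and 1.48% as higher. At an unadjusted p under 0.05 there were 3 members, beside 17.1% of all genes. These were *Chuk* and *Ikbkb* among the higher genes (9.43% of all genes) and *Tab2* among the lower (7.69%). DESeq2 also called *Tab2* alone among the members (adjusted p = 0.00312), beside 9.88% of the 8920 genes to which it gave an adjusted p. The median log2 fold change was 0.08 over the members and -0.00 over all genes tested, and the median size of the change was 0.15 and 0.14. The groups did not overlap for 4 members, beside 22.8% of all genes. Of these 3 were higher, beside 11.6%, and 1 was lower, beside 11.2%. In bulk RNA, a lower level in each cell and fewer cells that express a gene cannot be told apart.

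**Figure D1:**
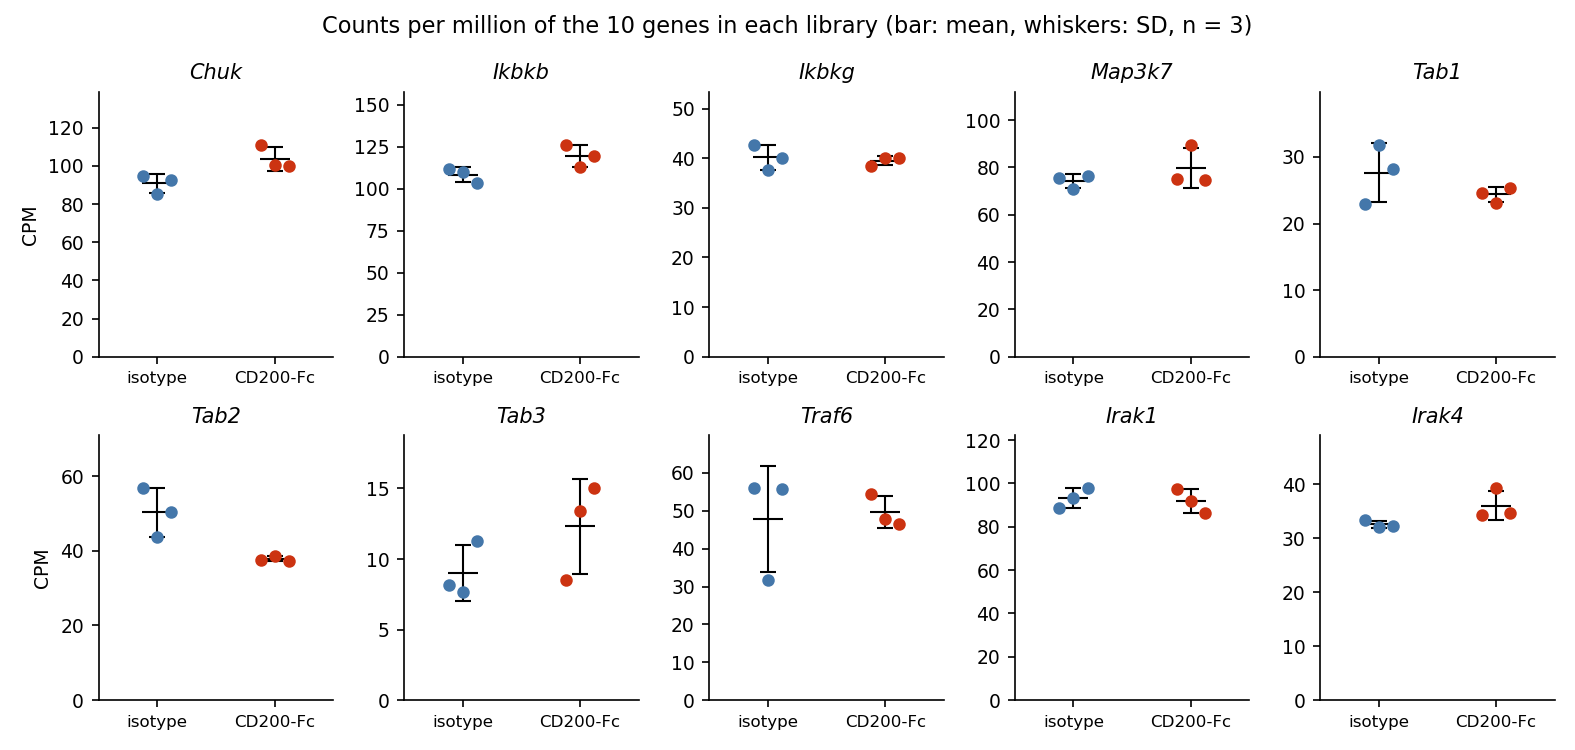
Level of each gene in CPM (linear axis from 0) in the 3 isotype (blue) and 3 CD200-Fc (red) libraries, with the mean and SD in black. The 3 CD200-Fc libraries of *Tab2* sit between 37.4 and 38.7 CPM, below all isotype libraries, while *Chuk*, *Ikbkb* and *Irak4* are the genes whose CD200-Fc libraries all lie above.

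The transcripts of both catalytic IKK subunits were slightly higher with CD200-Fc, but neither passed the test. *Chuk* (ENSMUSG00000025199.16, chr19:44073335-44107480, minus strand) was at 94.6, 85.2 and 92.6 CPM in isotype libraries and at 111.0, 100.7 and 99.7 CPM in CD200-Fc libraries. All CD200-Fc libraries thus lay above all isotype libraries, with replicate 35 the highest. The means were 90.8 ± 4.97 and 103.8 ± 6.23 CPM (SD, n = 3 each). This was a log2 fold change of 0.19 ± 0.07 (SE, 95% interval 0.04 to 0.34), and edgeR's Benjamini-Hochberg adjusted p was 0.167. *Chuk* shared 1.42% of its stretches of 50 bases with the gene *Gm17809*, which was itself at 0.391 CPM in isotype libraries.

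*Ikbkb* (ENSMUSG00000031537.15, chr8:22659212-22706589, minus strand) encodes the subunit that does most of the IκBα phosphorylation. It was at 111.9, 109.8 and 103.3 CPM with isotype and at 126.0, 113.0 and 119.6 CPM with CD200-Fc. The groups did not overlap at this scaling, but they did when libraries were scaled by total counts, by the upper quartile or as the authors scaled them. From 108.3 ± 4.47 to 119.5 ± 6.5 CPM (SD, n = 3 each), the log2 fold change was 0.14 ± 0.06 (SE, 95% interval 0.00 to 0.28) with an edgeR adjusted p of 0.279. The interval therefore reached a change of 1.21-fold at most.

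NEMO has no kinase activity and links the catalytic subunits to ubiquitin chains. Its gene *Ikbkg* (ENSMUSG00000004221.16, chrX:74393290-74453854, plus strand) was at 42.7, 37.7 and 40.1 CPM in isotype libraries and at 38.5, 40.1 and 40.0 CPM in CD200-Fc libraries. The CD200-Fc libraries fell within the range of the isotype libraries. The log2 fold change was -0.03 ± 0.09 (SE, 95% interval -0.21 to 0.16, edgeR adjusted p = 0.916). *Ikbkg* overlaps *G6pdx* on the opposite strand, and no source used here says whether reads were counted by strand. *G6pdx* was more abundant, at 448.9 CPM with isotype and 379.7 CPM with CD200-Fc (log2 fold change -0.24, edgeR adjusted p = 0.0186). Its part in the counts of *Ikbkg* was not tested.

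The proportions of the subunit transcripts were compared within each library, where no scaling is needed. The ratio of *Ikbkb* to *Chuk* counts was 1.18, 1.29 and 1.12 with isotype and 1.14, 1.12 and 1.20 with CD200-Fc. These values overlapped, and the log2 ratio differed by -0.05 (two-sided exact permutation p = 0.7, adjusted p = 0.7 over the 5 ratios tested). For *Ikbkg* to *Chuk* the ratio was 0.452, 0.443 and 0.433 with isotype and 0.347, 0.398 and 0.401 with CD200-Fc. All CD200-Fc libraries were below all isotype libraries, a difference of -0.22 in the log2 ratio (exact permutation p = 0.1, adjusted p = 0.25). With 3 samples against 3 a p of 0.1 is the smallest that this test can give, so no ratio could pass the threshold.

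TAK1, the kinase that activates IKK, showed no change in its transcript that passed the test. *Map3k7* (ENSMUSG00000028284.13, chr4:31964097-32023467, plus strand) was at 75.5, 70.9 and 76.4 CPM with isotype and at 75.2, 89.5 and 74.8 CPM with CD200-Fc. Replicate 36 was the only CD200-Fc library above the isotype range. Its log2 fold change was 0.11 ± 0.08 (SE, 95% interval -0.07 to 0.28, edgeR adjusted p = 0.555). Of its stretches of 50 bases, 5.19% occurred in other genes, mostly in *Gm8188* (2.18 CPM with isotype).

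TAB1 binds TAK1 and promotes its activity. *Tab1* (ENSMUSG00000022414.8, chr15:80133127-80161707, plus strand) was at 22.9, 31.8 and 28.2 CPM in isotype libraries and at 24.6, 23.1 and 25.4 CPM in CD200-Fc libraries. The isotype libraries spread around those with CD200-Fc, and the groups overlapped. The fitted log2 change was -0.18 ± 0.12 (SE, 95% interval -0.44 to 0.08, edgeR adjusted p = 0.493). The ratio of *Tab1* to *Map3k7* overlapped as well, at 0.304, 0.448 and 0.369 with isotype and 0.327, 0.258 and 0.340 with CD200-Fc (log2 difference -0.27, exact permutation p = 0.3, adjusted p = 0.375).

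*Tab2* fell with CD200-Fc. This gene (ENSMUSG00000015755.16, chr10:7905653-7956230, minus strand) encodes an adaptor that joins TAK1 to ubiquitin chains made by TRAF6. It was at 56.7, 43.7 and 50.4 CPM in isotype replicates 16, 17 and 18 and at 37.5, 38.7 and 37.4 CPM in CD200-Fc replicates 35, 36 and 38. Every CD200-Fc library lay below every isotype library, and the CD200-Fc libraries were nearly alike (coefficient of variation 2.01%, against 13.0% with isotype). The means were 50.3 ± 6.52 and 37.9 ± 0.762 CPM (SD, n = 3 each). On the log2 scale the fold change was -0.41 ± 0.10 (SE, 95% interval -0.62 to -0.20), which is 0.753-fold, and edgeR's Benjamini-Hochberg adjusted p was 0.0479. The adjusted p stood close to the threshold. It stayed under it in all 11 alternatives that kept every library (0.00312 to 0.0482), but in only 1 of the 6 fits that left out a library, the one without isotype replicate 17 (adjusted p = 0.026). Leaving out isotype replicate 16 or 18 gave 0.128 or 0.124, and leaving out CD200-Fc replicate 35, 36 or 38 gave 0.168, 0.124 or 0.134. Over these 6 fits the log2 fold change was -0.50 to -0.31. All counts of *Tab2*, from 885 to 1324 per library, were whole numbers to within 0.05.

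*Tab3* (ENSMUSG00000035476.9, chrX:85574022-85634469, plus strand), whose product can take the place of TAB2 in the TAK1 complex, had a fitted change in the other direction that did not pass. It was at 8.14, 7.65 and 11.3 CPM with isotype and at 8.54, 13.4 and 15.0 CPM with CD200-Fc. CD200-Fc replicates 36 and 38 were above all isotype libraries, whereas replicate 35 lay among them. The libraries held 155 to 440 counts of it, with a coefficient of variation of 22.2% with isotype and 27.2% with CD200-Fc. The log2 estimate was 0.45 ± 0.21 (SE, 95% interval -0.00 to 0.89, edgeR adjusted p = 0.298). The ratio of *Tab2* to *Tab3* counts was 6.97, 5.71 and 4.45 with isotype and 4.39, 2.90 and 2.50 with CD200-Fc. The groups did not overlap, although isotype replicate 18 and CD200-Fc replicate 35 were nearly equal. The log2 ratio differed by -0.83 (2.49 ± 0.32 against 1.66 ± 0.42, SD, n = 3 each), with an exact permutation p of 0.1 and an adjusted p of 0.25.

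**Figure D2:**
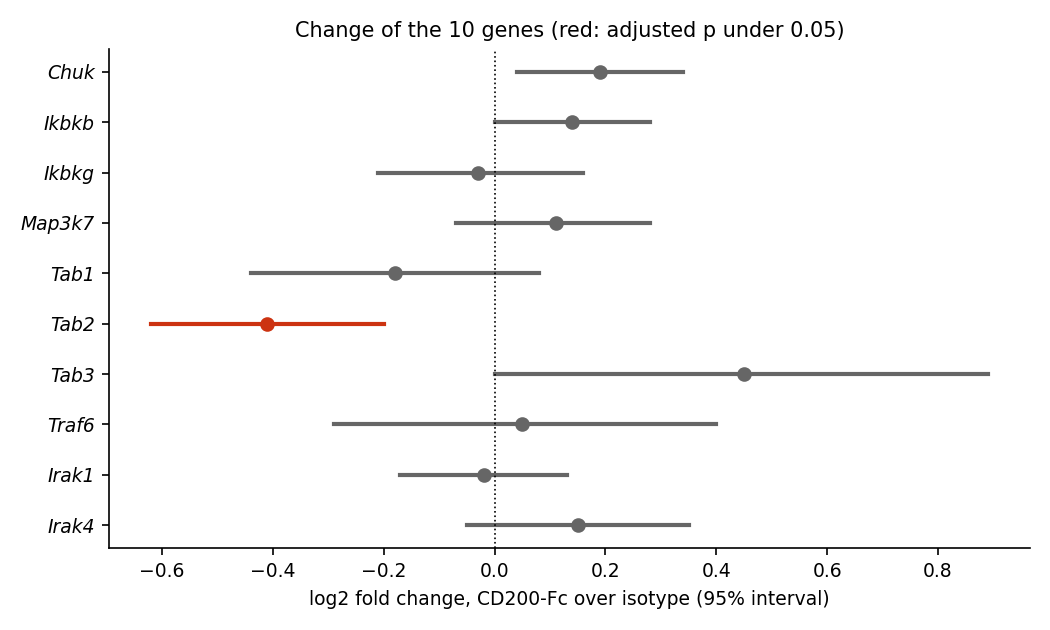
Log2 fold change of CD200-Fc over isotype for each gene (points) with its 95% interval from edgeR (lines), with genes called at an adjusted p under 0.05 in red. *Tab2* at -0.41 is the one called gene, and the widest interval belongs to *Tab3*, from -0.00 to 0.89.

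**Figure D3:**
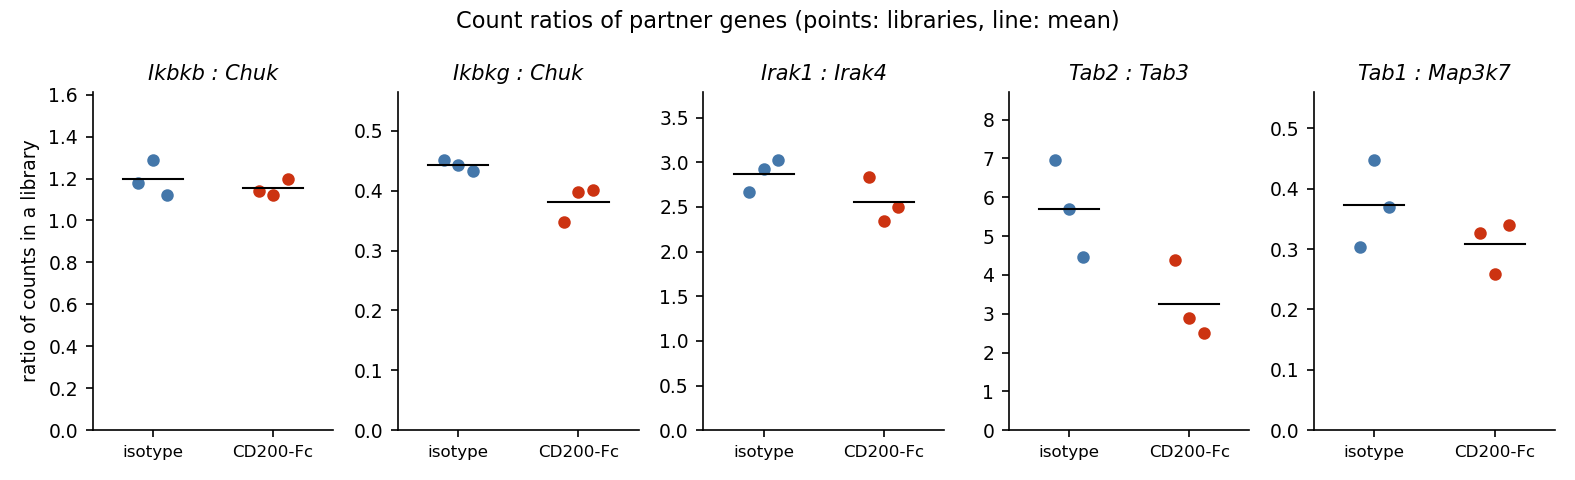
Ratio of the counts of partner genes within each library (linear axes from 0), with isotype in blue, CD200-Fc in red and the group mean as a black line. The ratios of *Tab2* to *Tab3* and of *Ikbkg* to *Chuk* are lower in all CD200-Fc libraries than in any isotype library, and the other ratios overlap.

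*Traf6* and the IRAK kinases stand upstream of TAK1, and none of them passed the test. *Traf6* (ENSMUSG00000027164.8, chr2:101678429-101701669, plus strand) was at 55.9, 31.6 and 55.8 CPM with isotype and at 54.4, 47.9 and 46.6 CPM with CD200-Fc. Isotype replicate 17 was far below the other 5 libraries, and the isotype coefficient of variation of 29.3% was the highest among the members. The log2 fold change was 0.05 ± 0.16 (SE, 95% interval -0.29 to 0.40, edgeR adjusted p = 0.905). Without isotype replicate 17 it was -0.17 (adjusted p = 0.465), and without CD200-Fc replicate 35 it was -0.011, so its sign was not stable.

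IRAK1 passes the signal from the MyD88 complex to TRAF6. *Irak1* (ENSMUSG00000031392.18, chrX:74013914-74023918, minus strand) was at 88.7, 93.5 and 97.7 CPM in isotype libraries and at 97.3, 91.9 and 86.4 CPM in CD200-Fc libraries. The groups covered nearly the same range. The log2 fold change was -0.02 ± 0.07 (SE, edgeR adjusted p = 0.908), and the 95% interval of the fold, 0.889 to 1.09, was among the narrowest of the members.

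IRAK4 is the first kinase of the MyD88 complex and acts on IRAK1. *Irak4* (ENSMUSG00000059883.16, chr15:94543643-94581815, plus strand) was at 33.3, 32.0 and 32.3 CPM with isotype and at 34.3, 39.2 and 34.6 CPM with CD200-Fc. The CD200-Fc libraries were all higher, replicate 36 most of all, but replicates 35 and 38 were only just above isotype replicate 16. Its log2 fold change was 0.15 ± 0.09 (SE, 95% interval -0.05 to 0.35, edgeR adjusted p = 0.444). The end of *Irak4* overlaps *Twf1* on the opposite strand, and 7.5% of its stretches of 50 bases lay in *Twf1* or other genes. *Twf1* itself had a fitted log2 change of 0.02 (edgeR adjusted p = 0.935), and its part in the counts of *Irak4* was not tested. The ratio of *Irak1* to *Irak4* was 2.67, 2.92 and 3.03 with isotype and 2.83, 2.34 and 2.50 with CD200-Fc, and overlapped between the groups (log2 difference -0.17, exact permutation p = 0.2, adjusted p = 0.333).

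Among isotype libraries, replicate 17 held the lowest level of 7 of the 10 members and the highest of *Tab1*, while replicate 16 held the highest level of 6. With CD200-Fc, the lowest levels were spread over the libraries, at 3, 2 and 5 members for replicates 35, 36 and 38. The members at which isotype replicate 17 was lowest included *Tab2*, *Traf6* and *Chuk*. Leaving that library out moved the log2 fold change of *Tab2* away from 0 (-0.50).

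Levels of different genes were compared per kilobase of the longest transcript, as the mean over the 6 libraries. The catalytic IKK subunits were the most abundant, *Ikbkb* at 28.6 and *Chuk* at 27.8 CPM per kilobase, followed by *Irak1* at 24.1. *Map3k7* came next at 13.3 CPM per kilobase. A middle group held *Tab2* (10.1), *Irak4* (9.98), *Tab1* (8.78) and *Traf6* (7.9), in the same unit. *Ikbkg* was at 5.7 and *Tab3*, the lowest, at 1.68 CPM per kilobase. Neighbours in this order overlapped over the libraries except at 2 steps, from *Irak1* to *Map3k7* (mean log2 difference of the level 0.86 ± 0.14, SD, 6 libraries) and from *Ikbkg* to *Tab3* (1.81 ± 0.40). The place of *Ikbkg* depended on the length used, since its longest transcript is 6994 bases and its coding part 1236 bases. By coding length *Ikbkg* ranked 5 of the 10 genes, and by transcript length it ranked 9. By every length used, *Chuk* and *Ikbkb* held the top ranks and *Tab3* the lowest.

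**Figure D4:**
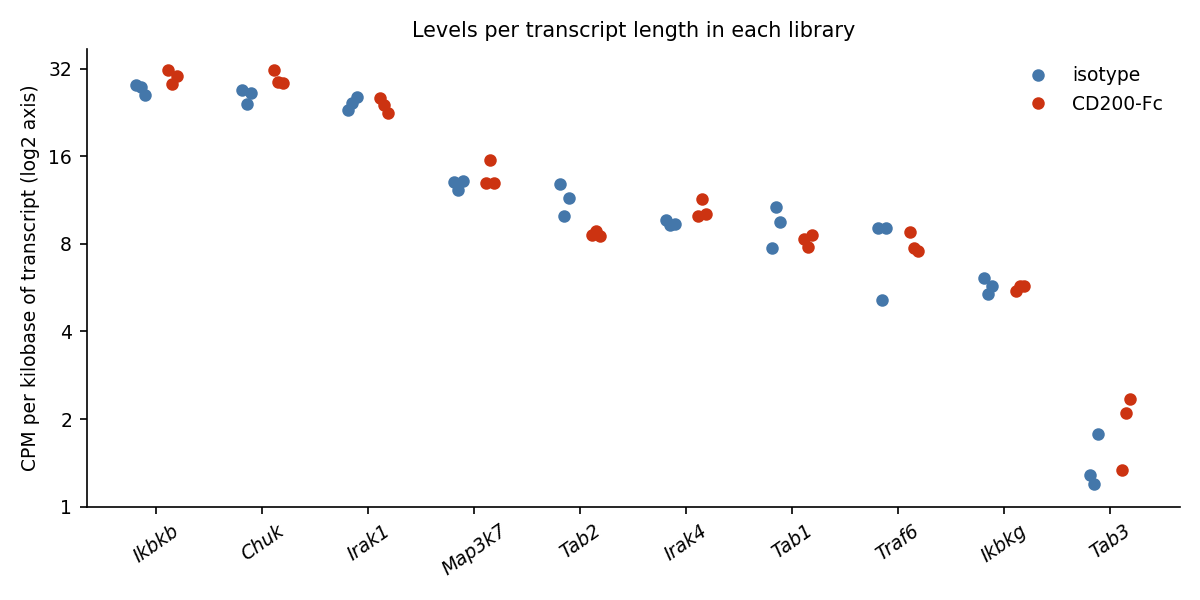
Level of each gene in CPM per kilobase of its longest transcript (log2 axis) in the isotype (blue) and CD200-Fc (red) libraries, ordered by the mean over all 6. The catalytic IKK subunits lead at 28.6 and 27.8, and *Tab3* lies below every library of the other genes.

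The surrounding route was described with 8 lists of genes that bind, feed, restrain or receive the signal of these kinases. Of 91 listed symbols, 88 were in the table and 86 were tested. By edgeR, 4 genes were called lower, none was called higher and the other 82 were not called. Over all genes tested 2.07% were called, 0.595% as lower and 1.48% as higher. At an unadjusted p under 0.05 there were 23 of the 86, beside 17.1% of all genes. Of these 10 were higher, beside 9.43%, and 13 were lower, beside 7.69%. The median log2 fold change over the lists was 0.00.

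Upstream of the kinases, none of 11 receptors and adaptors was called. The most abundant were *Il1rl1*, which encodes ST2 (603.3 ± 72.5 with isotype and 719.9 ± 64.4 CPM with CD200-Fc, log2 fold change 0.25, edgeR adjusted p = 0.112), and *Sigirr*, an inhibitory relative of the IL-1 receptor (0.00, adjusted p = 0.993). Of 12 genes of ubiquitin ligation and conjugation none was called. Among them *Ube2n*, the conjugating enzyme that works with TRAF6, had a log2 fold change of -0.08 (adjusted p by edgeR = 0.508), and *Ube2d3*, another conjugating enzyme, one of -0.02 (adjusted p = 0.833). None of 14 deubiquitinases, phosphatases and their adaptors was called either. Of these *Ppp2ca*, a catalytic subunit of protein phosphatase PP2A, had a log2 fold change of 0.06 (adjusted p = 0.657), and *Tax1bp1*, an adaptor of the deubiquitinase A20, one of 0.09 (adjusted p = 0.372).

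No chaperone or partner of IKK passed (0 of 8 called). *Hsp90ab1*, an HSP90 chaperone, was at 1692.8, 1744.9 and 1660.8 CPM with isotype and at 1575.9, 1531.1 and 1513.5 CPM with CD200-Fc. The groups did not overlap, and the log2 fold change of -0.14 ± 0.04 (SE) had an edgeR adjusted p of 0.0751. For *Hsp90aa1*, the inducible form, the log2 fold change was 0.02 (edgeR adjusted p = 0.893). Of 15 other kinases and partners that feed or resemble IKK, none was called. The most abundant were *Map3k3*, a kinase that can act on IKK (0.14, adjusted p = 0.314), and *Tbk1*, an IKK-related kinase (109.7 ± 4.94 with isotype and 129.2 ± 2.42 CPM with CD200-Fc, log2 fold change 0.24, edgeR adjusted p = 0.0591). All CD200-Fc libraries of *Tbk1* lay above all isotype libraries. In the antigen receptor route to IKK, 0 of 6 genes were called. *Prkcq*, protein kinase C theta, was at 54.4 ± 3.35 and 69.4 ± 7.18 CPM (log2 fold change 0.35, edgeR adjusted p = 0.0577), and *Prkcd*, protein kinase C delta, had a log2 fold change of -0.15 (adjusted p = 0.351). The CD200-Fc libraries of *Prkcq* were all above those with isotype, whereas the groups overlapped for *Prkcd*.

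The 4 called genes came from the lists downstream of TAK1 and IKK. In the MAP kinase arm of TAK1, 2 of 10 genes fell, beside 0.595% called lower over all genes tested. The other 8 were not called, and the median log2 fold change of this list was 0.01 (range -0.29 to 0.23). *Map2k3*, a kinase that activates p38, was at 305.6, 321.5 and 309.4 CPM with isotype and at 265.3, 256.9 and 253.9 CPM with CD200-Fc (log2 fold change -0.27 ± 0.05 (SE), edgeR adjusted p = 0.0161). *Mapkapk3*, a kinase activated by p38, was at 205.0, 240.6 and 225.6 CPM and at 177.4, 172.9 and 198.2 CPM (-0.29 ± 0.07, adjusted p = 0.0479). Neither overlapped between the groups, but the call of *Map2k3* held in 2 and that of *Mapkapk3* in 1 of the 6 fits without a library. *Map2k3* was lost without isotype replicate 18 or any one CD200-Fc replicate (adjusted p 0.0597 to 0.0725). *Mapkapk3* was lost without isotype replicate 17 or 18 or any one CD200-Fc replicate (0.0586 to 0.196). *Mapkapk2*, the relative of *Mapkapk3* with the higher level, had a log2 fold change of -0.06 (adjusted p by edgeR = 0.59).

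Of the 10 genes listed here as encoding IKK substrates, 2 fell, none rose and 8 did not pass. Whether IKK phosphorylates each of their products was not tested. Over all genes tested, 0.595% were called lower and 1.48% higher. The study itself named *Nfkb2*, *Nfkbia*, *Rela* and *Relb* as genes of this comparison, so their place in the list is not independent evidence of a direction. *Nfkb2*, which encodes the p100 precursor of the non-canonical pathway, was at 72.8, 78.0 and 63.6 CPM with isotype and at 49.6, 47.7 and 44.3 CPM with CD200-Fc. The groups stood well apart, with a log2 fold change of -0.60 ± 0.09 (SE, edgeR adjusted p = 0.00405), and the call held without each library in turn. *Nfkbia*, which encodes IκBα, was at 86.9, 107.5 and 86.4 CPM with isotype and at 66.9, 72.6 and 65.9 CPM with CD200-Fc. This was a log2 fold change of -0.45 ± 0.09 (SE, edgeR adjusted p = 0.0204), and the call was lost without isotype replicate 17 or any one CD200-Fc replicate (adjusted p 0.0532 to 0.104). *Rela*, the p65 subunit, had a log2 fold change of -0.20 (adjusted p by edgeR = 0.118), and *Nfkb1*, the precursor of p50, one of 0.07 (adjusted p = 0.53). All CD200-Fc libraries of *Rela* lay below all isotype libraries, although it did not pass the test. The groups overlapped for *Nfkb1*, and this bulk RNA did not show a lower level with CD200-Fc. The study showed its lower *Nfkb1* transcript in single activated ILC2s set against their *Cd200r1* level. That is not a comparison of CD200-Fc with isotype, so the results are not directly comparable. For *Relb*, the partner of p52 in the non-canonical pathway, named here after its values were seen, the groups did not overlap and the log2 value was -0.45 (edgeR adjusted p = 0.136). The median over this list was -0.19, beside -0.00 over all genes tested. It includes the genes that the study had named from these data, so it is not independent evidence of a direction either. *Nfkbia* and *Nfkb2* are known targets of NF-κB as well as substrates of IKK.

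**Figure D5:**
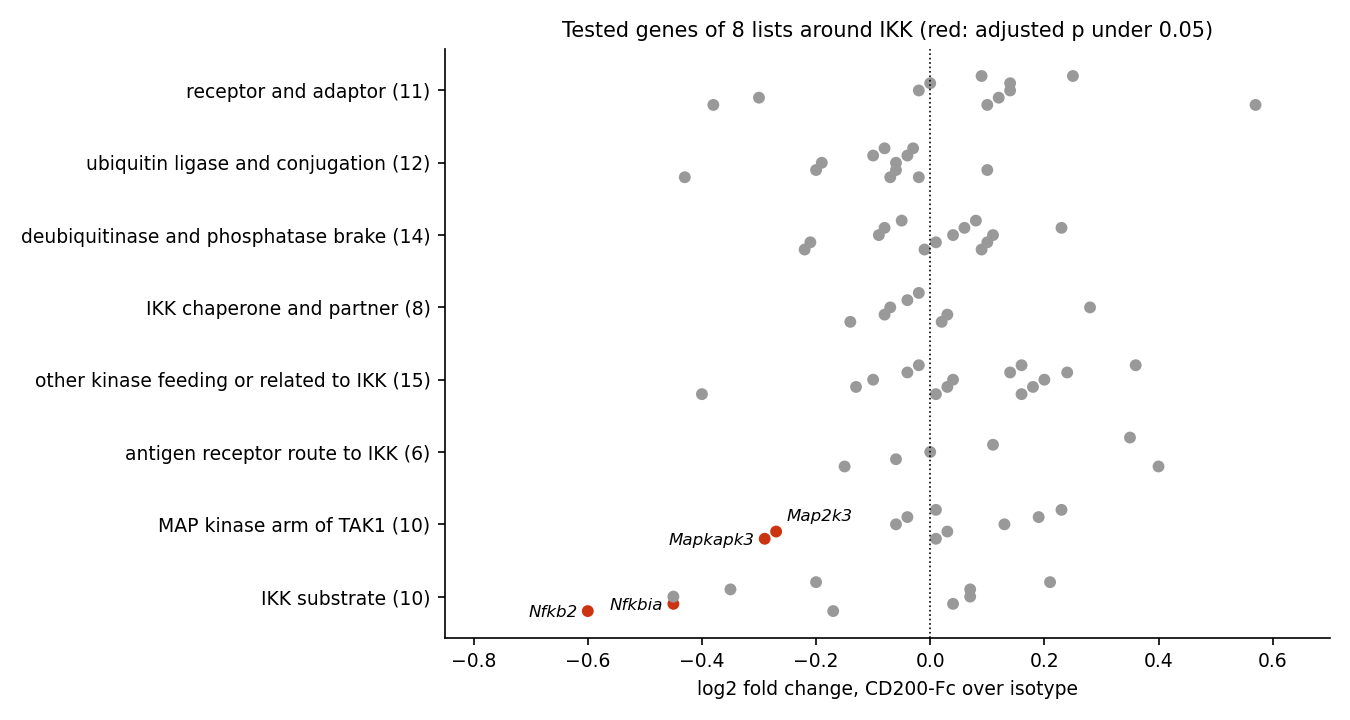
Log2 fold change of CD200-Fc over isotype (horizontal axis) for every tested gene of 8 lists around IKK, with the number tested in parentheses, points spread vertically only to separate them, and genes at an adjusted p under 0.05 in red. The 4 called genes, *Nfkb2*, *Nfkbia*, *Mapkapk3* and *Map2k3*, all lie below 0.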

How the data were processed

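RNA was sequenced from 3 CD200-Fc and 3 isotype samples. The submitters' processing notes name bcl2fastq 2.17.1.14, STAR 2.5.3a, Partek and mm10, with no annotation release stated. The expected counts were deposited by the authors as estimated by Partek's expectation maximization, not normalized. The authors' normalized signal was, as read from the values, the count with 1 added, times a factor of its sample.

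Expected counts were rounded, filtered with filterByExpr, scaled by TMM and tested with edgeR 4.0.16 (quasi-likelihood F test, R 4.3.3), with Benjamini-Hochberg adjustment over 14124 genes. The common biological coefficient of variation was 10.8%. The standard error of a log2 fold change was its size divided by the square root of its F statistic. Intervals of 95% came from this standard error and the t distribution. The fit was tested on simulated data. Ratios were compared by the exact permutation test over 10 splits. Alternatives used upper quartile or total count scaling, DESeq2 1.42.0, limma 3.58.1 (voom, or trend on the deposited normalized signal at a pseudocount of 1 or 0.1), no filter or a minimum of 10 counts in every library, robust dispersions, unrounded counts, offsets for length and GC content, and each library left out. Tables and figures used Python 3.11.15, pandas 2.3.3 and matplotlib 3.10.9.

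Gene coordinates are those of the files (mm10), which matched GENCODE vM21 for the members. Named genes were the members and, of each list, every called gene and the 2 with the highest mean CPM. The members and lists were chosen with earlier results of these data known. Counts of *Chuk*, *Ikbkg*, *Map3k7* and *Irak4* were not whole (to within 0.05) in 5, 6, 6 and 4 of the 6 libraries.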

Additional observations from a re-analysis of the deposited data

How the results depend on the processing

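Of 170 refits of single members, 159 kept the direction and the side of the threshold, 5 lost the call of *Tab2* (all without a library) and 6 changed sign. The changes of sign concerned members near 0. *Traf6* was -0.0085 with offsets for length and GC content. Without each library in turn the log2 fold change of *Ikbkg* was -0.07 to 0.023, that of *Traf6* -0.17 to 0.19 and that of *Irak1* -0.06 to 0.022. The number of genes called was 293, against 881 with DESeq2, 450 with at least 10 counts in every library, and 44 to 312 without a library. The number of members called was 0 to 1 without a library and 1 under the other alternatives. Without a library, the median over the members was 0.03 to 0.143, the log2 ratio of *Tab2* to *Tab3* differed by -1.06 to -0.66 and that of *Ikbkg* to *Chuk* by -0.25 to -0.15. By level, 5 of 10 members kept their rank with coding length and 5 with exon length in place of transcript length. The members whose groups did not overlap were 3 in place of 4 with the other scalings, since *Ikbkb* then overlapped. Leaving out a library lowers the number of samples. The lowest counts among the members were those of *Tab3*, at 155 to 440. No paired analysis was made, because neither the labels nor the study say whether samples of both groups came from the same sorted cells.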
